A study of Mus musculus with 12 samples.

Results

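The untreated adult hippocampus was described from 3 control mice, 3 of the 12 libraries of the series, chosen by their label as control. All 12 mice were male C57BL/6 mice, of the substrain C57BL/6J per the methods, taken at postnatal day 70, and total RNA of the whole dissected hippocampus was sequenced after removal of rRNA. Dams of control mice drank water alone, and control pups stayed with the dam and other littermates. The remaining 9 mice were 3 ethanol mice, whose dams were offered 10% ethanol in water through gestation and until postnatal day 10, 3 stress mice, which were kept alone for 3 h each day between postnatal days 2 and 14, and 3 ethanol + stress mice with both exposures. Stress pups were picked from within litters, and the labels do not say which mice share a litter or dam, so the spread between the control mice may be smaller than that between unrelated animals.

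The hippocampus receives and stores information on places and events. Granule cells of the dentate gyrus, which carry input from the cortex, contact pyramidal cells of CA3, and these in turn contact pyramidal cells of CA1, while interneurons that release GABA restrain both. Glutamate receptors of the AMPA and NMDA types carry the fast and the slow part of excitation, and the calcium that enters acts on calmodulin and its kinase CaMKII. Many of these proteins exist in forms that differ by a single short exon.

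Levels are TPM (transcript abundance scaled for length and library size) summed over the transcripts of a gene. At 13627 genes, all 3 control mice had 1 TPM or more, the level taken here as detected. Of these, 13293 were protein-coding, which is 60.4% of the 22013 protein-coding genes of the table, and 325 were pseudogenes of some kind. Detection in a single mouse was similar, at 14427, 14330 and 14313 genes in control 1, 2 and 3. A level of 10 TPM or more in all 3 mice was reached by 8887 genes, 100 TPM by 1370 genes and 1000 TPM by 75 genes. The total was spread unevenly, since 362, 395 and 405 genes held 50 percent of the TPM of control 1, 2 and 3. At the other end, 3534 protein-coding genes were listed at 0 in all 3 mice. Each control library held 12080000 to 13370000 recovered read pairs, at which 3 read pairs on a transcript of 2000 bases correspond to 0.201 to 0.222 TPM, so lower levels lie within counting error of 0. Across the detected genes the log2 levels of any pair of control mice correlated with r = 0.990, a description across genes of 1 tissue, not a test.

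By class, protein-coding genes held 93.01% ± 0.178 (SD, n = 3) of the TPM, of which the 13 genes encoded in the mitochondrion held 6.36% ± 0.266. Unprocessed pseudogenes held 5.22% ± 0.231 and processed pseudogenes 1.15% ± 0.0616. Nearly all of the first of these classes was 4 copies of mitochondrial genes on chromosome 1, Gm29216, Gm28437, Gm28661 and Gm10925, with 5.19% ± 0.231. Counted as read pairs, without the scaling by length, protein-coding genes held 98.3% ± 0.0541 and the 4 copies 1.37% ± 0.0581. Of 12 listed long noncoding RNAs 1 was analysed, Snhg11, a host gene of small nucleolar RNAs, which the annotation classes as protein-coding, at 34.1, 37.2 and 34.8 TPM. The others, such as Malat1 and Meg3, and all 6 listed small structured RNAs, such as Rmrp and Rpph1, were not analysed here.

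The 3 highest protein-coding nuclear genes of the table were not neuronal genes. Gm20594, a short single-exon gene, had 51300, 50414 and 54279 TPM in control 1, 2 and 3. Ccnb1ip1, known for its role in meiotic recombination, had 44249, 33567 and 33211 TPM, with control 1 above the other two. Ccdc107, a coiled-coil protein gene, had 10180, 7996 and 8463 TPM, again highest in control 1. The main transcript of each is short and carries sequence of another RNA. The Ccnb1ip1 transcript ENSMUST00000227614.1 (Ccnb1ip1-202, 444 bases, chr14:50793805-50807732, minus strand, GRCm38) opens with bases 1 to 233 in common with Rpph1, the RNA of ribonuclease P, and 203 of its 414 stretches of 31 bases (31-mers) occur there. The Ccdc107 transcript ENSMUST00000143073.7 (Ccdc107-206, 594 bases, chr4:43492900-43494205, plus strand) shares its bases 1 to 124 with the opposite strand of Rmrp, the RNA of ribonuclease MRP. In Gm20594 (449 bases, chr6:79817916-79818364, plus strand), bases 368 to 432 match the mitochondrial 16S rRNA gene mt-Rnr2. The 3 shared runs are given here as they stand in the GENCODE transcripts.
Ccnb1ip1-202 and Rpph1: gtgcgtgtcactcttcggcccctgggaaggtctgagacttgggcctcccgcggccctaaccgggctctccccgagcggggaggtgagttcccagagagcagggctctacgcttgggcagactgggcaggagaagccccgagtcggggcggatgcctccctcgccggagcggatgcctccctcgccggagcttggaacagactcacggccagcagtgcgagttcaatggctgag
Ccdc107-206 and Rmrp: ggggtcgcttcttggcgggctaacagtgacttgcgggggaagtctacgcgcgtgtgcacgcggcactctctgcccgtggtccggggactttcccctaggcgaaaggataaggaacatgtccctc
Gm20594 and mt-Rnr2: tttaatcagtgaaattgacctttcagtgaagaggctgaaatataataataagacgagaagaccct

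A transcript of Ncapd2 that keeps an intron had 207 of its 652 31-mers in Scarna10, a guide RNA of Cajal bodies, and Ncapd2 stood at 2900, 2548 and 2757 TPM. Creb5, through a noncoding transcript with 134 of 1176 31-mers in the snRNA gene Gm25818, was alike. The 5 genes together held 10.6% ± 0.566 of the TPM and 1.77% ± 0.130 of the read pairs. How much of each level came from the other RNA was not tested.

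Below these, the highest genes were the ones that any large, active cell uses, together with genes of astrocytes, myelin and calcium signalling. Eef1a1, the translation factor that brings tRNA to the ribosome, had 4481, 4381 and 4046 TPM. Apoe, the lipid carrier made by astrocytes, had 3790, 3668 and 3433 TPM. Calm2, one of the calmodulin genes, had 3248, 3421 and 3088 TPM. The mice overlapped closely in each of these. Tmsb4x, which binds free actin, had 2671, 2678 and 2542 TPM. Aldoa and Gapdh of glycolysis had means of 2612 ± 129 and 1681 ± 146 TPM. Mbp, the basic protein of myelin, had 2441, 2122 and 2223 TPM. Fth1, the ferritin heavy chain, had 2876, 2520 and 2236 TPM, a wider spread than its neighbours. Cst3, a secreted protease inhibitor of astrocytes and microglia, stood at 2432 ± 219 TPM. Hspa8, the constitutive chaperone that also uncoats clathrin vesicles, stood at 2164 ± 75.5 TPM and the ubiquitin gene Ubb at 2098 ± 106 TPM. Cpe, which trims peptide hormones and is abundant in neurons, was the steadiest of the 30, with 2200, 2218 and 2215 TPM. Short ribosomal protein genes filled much of the rest, among them Rps27 (2474 ± 152), Rplp1 (2326 ± 164), Rps29 (2241 ± 24.5), Rpl41 (1787 ± 213), Rpl13a (1736 ± 170), Rps24 (1661 ± 17.5) and Rps21 (1618 ± 16.7). Actb, Ppia and the respiratory chain genes Cox8a, Usmg5 and Atp5b were also among the 30, with 1661 to 2071 TPM. Of these 30 genes, 27 were also among the 30 highest of the ethanol group, 28 of the stress group and 26 of the ethanol + stress group.

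**Figure D1:**
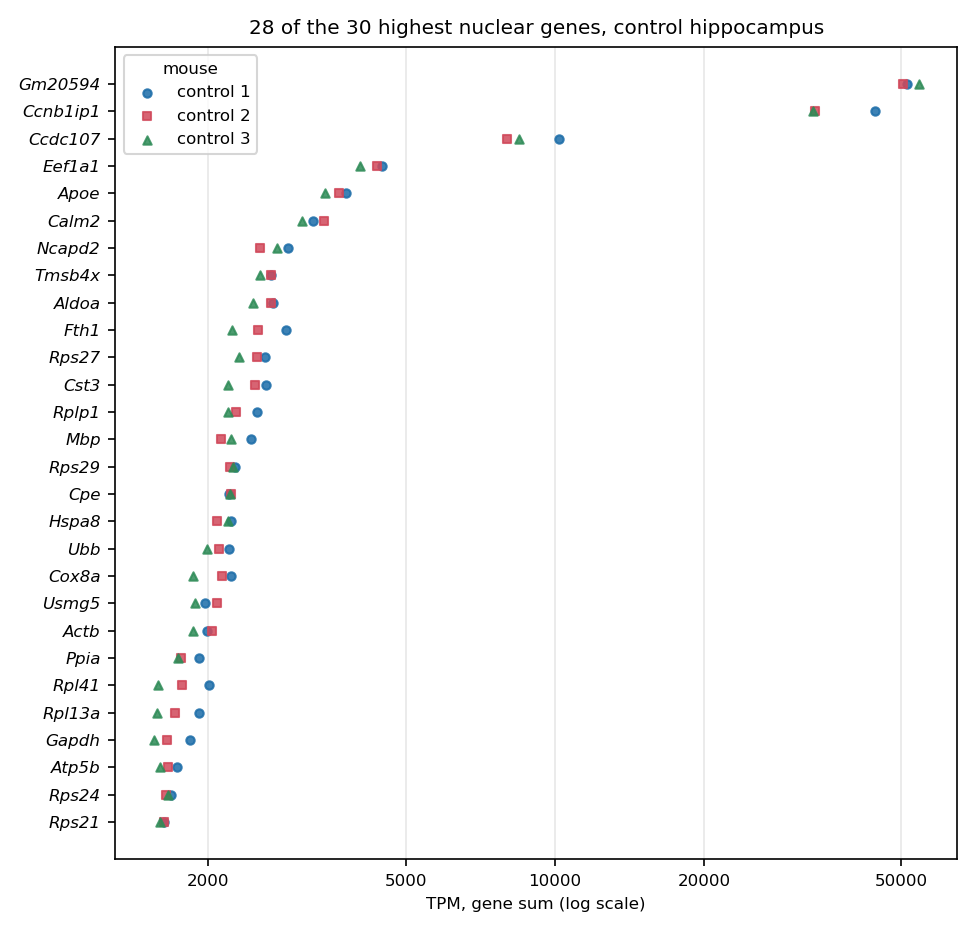
The figure plots 28 of the 30 protein-coding nuclear genes with the highest mean level, with TPM on a log axis and 1 point per control mouse. Gm20594, Ccnb1ip1 and Ccdc107 stand apart at 7996 TPM or more in every mouse, and the other 25 lie between 1551 and 4481.

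Ranking by recovered read pairs, which favours long transcripts, brought neuronal and astrocyte genes forward. mt-Co1 was then highest, with 195636 read pairs on average. Slc1a2, the main glutamate transporter of astrocytes, rose to rank 7 with 51578 read pairs at 841 ± 41.7 TPM. Map2, the dendritic microtubule protein, had 31409 read pairs at 882 ± 12.9 TPM, and Kif5a, a motor of axonal transport, 29881 at 617 ± 9.72 TPM.

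The 13 proteins encoded in the mitochondrion are subunits of the respiratory chain and of ATP synthase, and all were detected. mt-Co1, of complex IV, had 18624, 18377 and 17865 TPM. mt-Nd3 had 11134 ± 325, mt-Co3 9753 ± 1558, mt-Atp8 6157 ± 315 and mt-Atp6 4119 ± 835 TPM, and the lowest was mt-Nd5 of complex I with 417 ± 57.1. The level of mt-Atp8 rests on 206 read pairs, against 195636 for mt-Co1, and its transcript of 204 bases is about as long as the fitted fragments of 199 to 203 bases. Each of 4 genes shares sequence with a copy among the chromosome 1 pseudogenes, so the division between gene and copy is uncertain. The copies of mt-Co2, mt-Co3 and mt-Atp6 span nearly the whole gene, while Gm29216 holds 449 of the 1515 31-mers of mt-Co1. Further pseudogenes overlap these copies, with 171 of 462 31-mers of Gm29216 in Gm13340 and 305 of 651 of Gm28661 in Gm13341. The level of mt-Nd3 is uncertain too, with 312 of its 318 31-mers in the pseudogene Gm28438, as is that of mt-Nd4, with 846 of 1348 in Gm28439. For mt-Co3, which shares 753 of 754 31-mers with Gm28437, the gene varied by 15.97% (coefficient of variation) and the copy by 4.90%, but their sum, 26730, 25909 and 24544 TPM, by 4.29%. For mt-Atp6 and Gm10925 the values were 20.3% and 27.6%, and 4.69% for the sum. For mt-Co2 and Gm28661 they were 14.3% and 3.82%, and 2.79% for the sum. In mt-Co1 and Gm29216, at 2.12% and 2.53%, the sum varied by 2.31%.

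The other 6 of the 10 highest noncoding genes were pseudogenes of 486 to 1057 TPM. Gm10123 was highest at 1057 ± 16.2, then Gm10275 at 854 ± 23.7, Rpl27-ps3 at 716 ± 33.3, Gm15500 at 661 ± 30.4, Gm7536 at 647 ± 32.3 and Rps23-ps1 at 486 ± 37.7 TPM. Pseudogenes of this kind resemble an expressed parent gene, so read pairs may have been divided between parent and copy.

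Nuclear genes of the respiratory chain were detected at 82 of 84 members, with a median of 304 TPM and a sum of 37205, 35240 and 33900 TPM. Cox8a (2071 ± 189), Atp5b (1661 ± 67.0), Cox4i1 (1477 ± 72.7) and Cox6c (1259 ± 16.5) led the list, which leaves out Usmg5 (1978 ± 104). The exceptions were Cox7b2, at 1.41, 2.33 and 0 TPM, and Cox8c, listed at 0 in all 3, both known mainly from testis. Cytosolic ribosomal protein genes were detected at 81 of 84 members with a median of 634 TPM. Their undetected members were the variants Rpl3l, Rpl39l and Rpl10l, the last listed at 0 in all 3. All 14 glycolysis genes were detected, led after Aldoa and Gapdh by Pkm at 1189 ± 9.80 and Tpi1 at 776 ± 31.7 TPM.

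Markers of the hippocampal subfields were all detected, as were those of its glia. All 7 dentate granule cell markers were present, with Calb1 at 76.6, 62.3 and 63.1, C1ql2 at 47.3, 57.1 and 49.2, Trpc6 at 39.8, 39.1 and 35.6, and Prox1, the transcription factor that defines these cells, at 13.7, 14.4 and 14.7 TPM. All 4 CA1 markers were present, Mpped1 at 122 ± 7.27, Fibcd1 at 55.2 ± 3.21, Wfs1 at 36.2 ± 2.75 and Pou3f1 at 13.02 ± 0.964 TPM. All 7 markers of CA2 and CA3 were present, led by Pcp4 at 319 ± 17.0, Bok at 85.5 ± 7.81, Rgs14 at 74.5 ± 4.98 and Nectin3 at 35.6 ± 1.96 TPM. The levels in bulk tissue do not tell more cells of a type from more RNA per cell, nor show which cells made an RNA. The listed interneuron genes were led by the peptides Cck (851, 783 and 671 TPM), Sst (406, 349 and 355) and Npy (192, 139 and 160) and the GABA-synthesizing enzyme Gad1 (200, 167 and 204). In all 3 of the peptides control 1 was highest.

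Astrocyte genes followed Apoe with Glul, the glutamine synthetase, at 1356 ± 68.3, Aldoc at 998 ± 122 and Clu at 907 ± 44.9 TPM. Myelin genes other than Mbp included Mobp at 783 ± 45.6 and Cnp at 284 ± 8.94 TPM. Precursors of oligodendrocytes were marked by Pdgfra at 29.1 ± 2.15 and Gpr17 at 17.9 ± 0.999 TPM. All 11 microglial genes were detected, among them Ctss (111 ± 7.05), C1qa (80.8 ± 6.503) and P2ry12 (65.5 ± 7.27), and the lowest averaged 9.23 TPM. Endothelial genes Ly6c1, Itm2a, Slco1a4 and Cldn5 stood at 55.0 ± 7.40, 53.2 ± 0.960, 48.2 ± 5.11 and 36.8 ± 8.01 TPM. The pericyte genes Vtn (64.1 ± 3.62) and Rgs5 (50.7 ± 4.28) and the fibroblast gene Dcn (92.0 ± 7.001) were present.

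Markers of neighbouring regions were detected in part, some of them above hippocampal markers such as Prox1. Of 4 cerebellar markers only Car8 was detected (4.42 ± 0.460 TPM), and Cbln3, Pcp2 and Gabra6 stood at 0.232, 0.188 and 0.0369 TPM on average. The 5 thalamic markers were detected at 1.89 to 15.9 TPM, led by Slc17a6 and Prkcd. Among the 6 striatal markers 4 were detected, among them Ppp1r1b at 32.4 ± 2.69, Rgs9 at 7.81 ± 0.807 and Drd1 at 5.91 ± 1.24 TPM, while the receptors Adora2a and Drd2 averaged 0.991 and 0.630 TPM. Among the 6 hypothalamic peptide genes Pomc, also a pituitary gene, was the only one detected, at 2.89, 21.03 and 2.80 TPM, and control 2 stood apart. Hcrt was listed at 0 in all 3 mice and Avp, Oxt, Agrp and Pmch stood at 0.331 to 1.13 TPM. The male genes Ddx3y (42.0 ± 2.99), Eif2s3y (34.8 ± 3.20), Uty (22.3 ± 0.572) and Kdm5d (14.5 ± 2.25) were present in each mouse. Choroid plexus genes were all detected and uneven, with 1665, 865 and 2354 TPM over 8 genes.

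**Figure D2:**
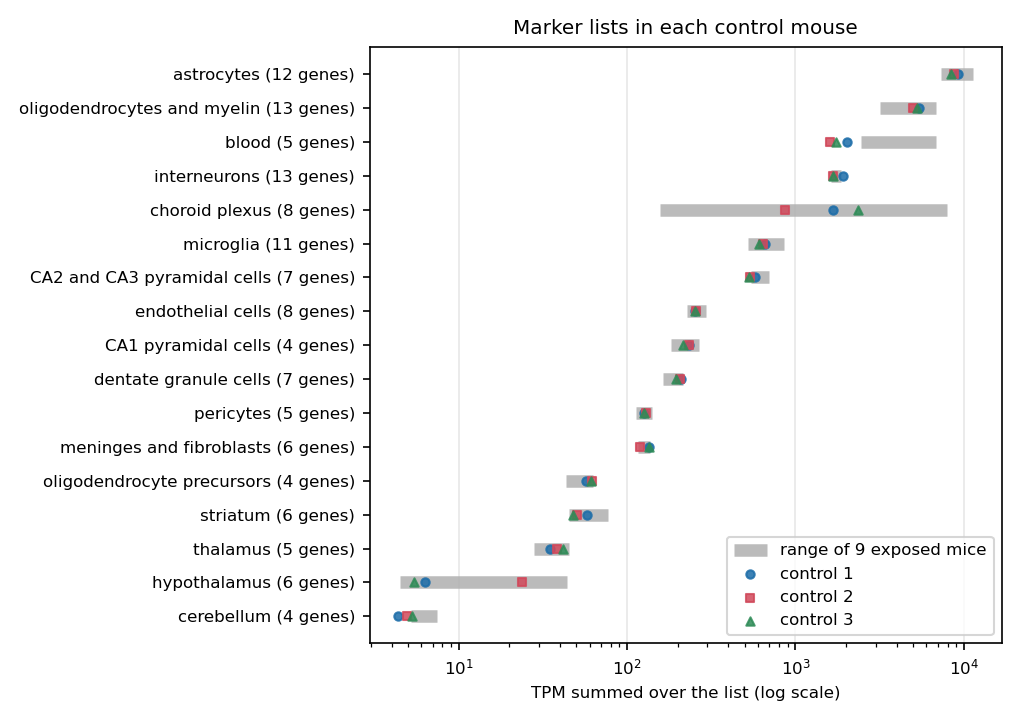
TPM summed over each marker list on a log axis, with 1 point per control mouse and a grey bar for the range of the 9 exposed mice. Control points lie close together except for choroid plexus (865 to 2354) and the hypothalamic list (5.45 to 23.7), and the 3 blood values (1603 to 2022) lie below the exposed range.

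Genes of the release machinery were detected at all 18 members, with a sum of 5472, 5331 and 5378 TPM. Snap25, the plasma membrane SNARE that pulls the vesicle to the membrane, was by far the highest at 1548, 1568 and 1579 TPM. The vesicle proteins Syp (658 ± 20.7), Syt1 (462 ± 18.8) and Rab3a (454 ± 28.8) followed. Calcium signalling genes were detected at all 14 members, among them Calm2, Calm3 (1421 ± 63.6) and the calcineurin subunit Ppp3ca (909 ± 51.1). All 16 scaffold genes of the postsynaptic density and the inhibitory synapse were detected, with Dlgap1 at 223 ± 3.50, Dlg4, which encodes PSD-95, at 214 ± 6.85, Dlg2 at 119 ± 9.25 and Homer1 at 85.3 ± 4.03 TPM. Neuronal cytoskeleton and identity genes (12 of 12 detected) were led by Map2, Stmn3 (729 ± 28.0), Uchl1 (676 ± 25.5) and Thy1 (624 ± 20.2).

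Glutamate receptor genes were detected at 24 of 26 members. Gria2, the AMPA receptor subunit that keeps calcium out, was highest with 348, 397 and 397 TPM, and Gria1 followed with 285, 308 and 303. Control 1 was lowest in both. The metabotropic receptor Grm5 had 170 ± 7.19 TPM and the obligatory NMDA receptor subunit Grin1 99.6 ± 5.71. Grin3b and Grm6, the receptor of retinal bipolar cells, were undetected at 0.153 and 0.0273 TPM on average. Among 19 genes of GABA receptors and transport, 16 were detected. Gabbr1, of the slow GABA-B receptor, had 385, 387 and 383 TPM, and the mice differed little in it. The undetected ones were Gabrq, Gabre and Gabra6.

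Most genes used mainly 1 transcript. Of 11189 genes with a mean of 5 TPM or more, 8781 (78.5%) had a main transcript with at least 50 percent of the gene's TPM. Among the 9904 with at least 2 transcripts in the table (median 6) the median share of the main transcript was 69.1%, 2371 genes had 90% or more in it and 153 under 25%. The main transcript was the same in all 3 mice for 8480 of these genes (85.6%). In 9863 protein-coding genes of that kind, it was annotated as coding for protein in 9240 (93.7%), and as a processed transcript in 265, a retained intron in 185 and a target of nonsense-mediated decay in 171.

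In a list of 62 neuronal genes the median share was 51.3%, with 34 at 50 percent or more. These genes had a median of 8 transcripts in the table, against 6 above, and the shares of the list and of all genes were not tested against each other. The main transcript was the same in all 3 mice in 56 of them, and Syn1, Scn1a, Grin1 and Camk2g were among the exceptions. Genes of the release machinery lay at the upper end. The neurofilament Nefl has 1 transcript in the table, Tubb3, a neuronal tubulin, had 99.9% in Tubb3-201, and the SNARE genes Vamp2 and Stx1a had 97.4% and 93.1%. Syp, Snap25, App and Camk2a followed with 97.1%, 91.7%, 91.3% and 84.6%. Syn3 averaged 81.0%, but had 60.2% in control 1 against 90.6% and 92.3% in the others, at a gene level of 5.90 TPM. The lower end is given with the share of the gene's recovered read pairs held by the same transcript, since the 2 measures differ there. Ank3, the organizer of the axon initial segment, had 18.8% ± 1.87 in its main transcript among 47 but 1.28% of its read pairs, and Ank2 28.6% ± 0.0417 among 27, with 31.9% of its read pairs. Camk2g had 20.3% ± 3.66 and 34.6% by read pairs. Ntrk2, the BDNF receptor, had 28.3% ± 0.787 in Ntrk2-204 and 15.7% by read pairs. Grin1 and Ntrk3 had 29.2% and 30.3%, and 28.6% and 23.1% by read pairs. Map2, Camk2d and Atp2b1 had 35.7%, 36.2% and 39.1%, but 48.3%, 52.4% and 78.0% by read pairs. In Syn2 and Cacna1a the highest transcript is annotated without a protein product. That of Cacna1a, Cacna1a-210, held 42.6% ± 3.35 of the TPM but 3.70% of the recovered read pairs, so that there, as in Ank3, the ranking turns on the length scaling.

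**Figure D3:**
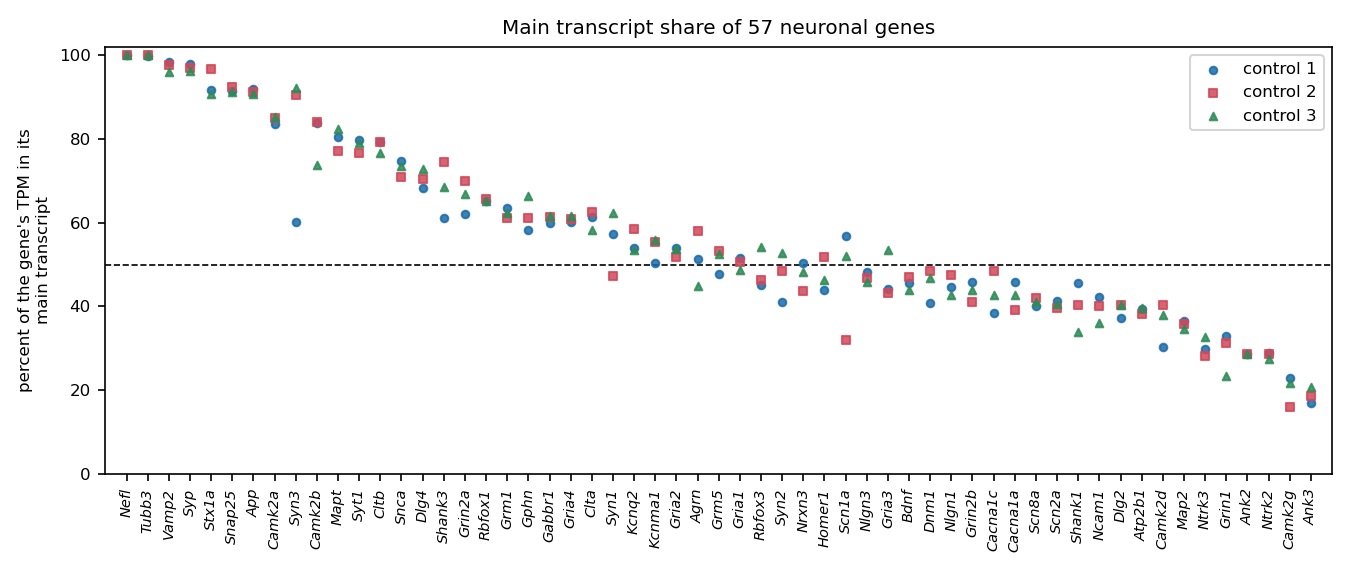
Percent of a gene's TPM held by its main transcript in each control mouse, for 57 of the 62 neuronal genes ordered by their mean, with a dashed line at 50%. The values run from 100% in Nefl to 18.8% in Ank3, and the mice lie furthest apart in Syn3 and Scn1a.

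Alternative exons of known function were read from the transcripts that carry or skip them. The AMPA receptor genes each have a pair of exons, flip and flop, used one at a time, which set how fast the receptor desensitizes. The exons of Gria1 and Gria2 are shown because the choice between them is what was measured. In each pair capitals mark the 36 positions at which flop and flip differ. The Gria1 exons lie at chr11:57309769-57309883 (flop) and chr11:57310608-57310722 (flip) on the plus strand, and the Gria2 exons at chr3:80691320-80691434 (flop) and chr3:80690404-80690518 (flip) on the minus strand, all in GRCm38.
Gria1 flop: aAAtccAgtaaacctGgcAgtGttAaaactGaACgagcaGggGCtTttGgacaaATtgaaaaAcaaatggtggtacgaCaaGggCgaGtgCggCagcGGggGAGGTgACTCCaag
Gria1 flip: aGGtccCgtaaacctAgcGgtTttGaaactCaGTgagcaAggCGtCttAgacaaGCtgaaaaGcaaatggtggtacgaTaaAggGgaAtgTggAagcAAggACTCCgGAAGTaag
Gria2 flop: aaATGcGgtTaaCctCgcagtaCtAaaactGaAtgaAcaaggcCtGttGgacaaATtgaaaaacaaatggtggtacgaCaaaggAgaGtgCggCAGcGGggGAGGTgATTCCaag
Gria2 flip: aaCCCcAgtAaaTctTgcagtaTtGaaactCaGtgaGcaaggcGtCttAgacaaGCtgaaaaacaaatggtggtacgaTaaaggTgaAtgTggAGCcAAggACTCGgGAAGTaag

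In Gria1 the forms were near balance, with flop transcripts at 130, 145 and 139 TPM and flip transcripts at 149, 160 and 150 TPM. Flop was 47.4% ± 0.792 of the pair. In Gria2 flip led, with 188, 206 and 214 TPM against 71.6, 80.7 and 85.3 TPM of flop, a flop share of 28.1% ± 0.451, with 26.02% of the gene in transcripts assigned to neither form. By recovered read pairs the Gria2 flop share was 51.0%, with a flop transcript of 10371 bases and a flip transcript of 4026, so the order of the forms in Gria2 depends on the length scaling. In Gria3 flop was 15.1%, 23.4% and 18.6% of the pair and 11.002% of its read pairs, with 41.8% of the gene in transcripts that could not be assigned. In Gria4 flop was 80.1%, 74.2% and 61.0%, at 43.0 TPM for the gene and with 60.9% unassigned. The mice differed most in these 2 genes of low level.

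Snap25 has a pair of exons, 5a and 5b, which alter the stretch that anchors the protein to the membrane, and 5b is known as the adult form. Capitals mark the 31 positions at which they differ. They lie at chr2:136769743-136769860 (5a) and chr2:136770057-136770174 (5b) on the plus strand.
Snap25 5a: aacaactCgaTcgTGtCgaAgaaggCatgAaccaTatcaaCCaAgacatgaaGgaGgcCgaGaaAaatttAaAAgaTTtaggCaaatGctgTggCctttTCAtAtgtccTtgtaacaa
Snap25 5b: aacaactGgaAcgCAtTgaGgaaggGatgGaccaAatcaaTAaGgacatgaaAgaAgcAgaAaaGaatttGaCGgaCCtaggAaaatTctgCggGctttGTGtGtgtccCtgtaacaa

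Snap25-201, with exon 5b, had 1415, 1452 and 1439 TPM, and Snap25-202, with exon 5a, 133, 116 and 139. Exon 5a was thus 8.26% ± 0.740 of the pair, and 3.69% of its read pairs. All 3 mice lay on the side of 5b.

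Cassette exons, which are kept or skipped as a whole, are shown for App, Grin1 and the clathrin light chains. The App exon (chr16:85043576-85043743, minus strand) encodes the Kunitz protease inhibitor domain, which the neuronal form of App lacks. The 63-base Grin1 exon (chr2:25311343-25311405, minus strand) adds a loop outside the cell. The exons of Clta (chr4:44030215-44030268 and chr4:44031400-44031435, plus strand) and Cltb (chr13:54597026-54597079, minus strand) are the neuronal inserts of clathrin.
App exon: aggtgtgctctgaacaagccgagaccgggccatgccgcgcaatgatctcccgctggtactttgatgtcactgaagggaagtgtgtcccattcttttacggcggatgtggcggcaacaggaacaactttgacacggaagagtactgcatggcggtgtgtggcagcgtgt
Grin1 63-base exon: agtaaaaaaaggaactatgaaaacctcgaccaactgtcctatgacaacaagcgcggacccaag
Clta 54-base exon: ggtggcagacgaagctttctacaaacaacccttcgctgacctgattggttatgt
Clta 36-base exon: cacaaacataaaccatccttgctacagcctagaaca
Cltb 54-base exon: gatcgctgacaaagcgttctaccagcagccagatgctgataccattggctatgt

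App mostly skipped its exon, with 676, 664 and 689 TPM without it and 55.8, 61.3 and 68.1 TPM with it, an inclusion of 8.35% ± 0.686. The 63-base exon of Grin1 was included in 12.8% ± 0.881, and its C-terminal exon, which adds a cassette to the tail inside the cell, in 51.9%, 46.3% and 53.1%. The neuronal exons were the common form in clathrin light chains. The 54-base exon was included in 72.8% ± 2.36 and the 36-base exon in 71.2% ± 1.31 of Clta, and the exon of Cltb in 78.8% ± 1.38 (60.1% by read pairs). The 30-base exon of the adhesion molecule Ncam1 was included in 17.8% ± 0.622 (28.4% by read pairs). Exon 10 of Mapt, which adds a microtubule repeat to tau, was carried by transcripts with 143, 150 and 143 TPM, and no transcript of the table skips it as a whole, so its share could not be measured. The printed cassette exons all have lengths that are a multiple of 3, which keeps the reading frame.

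**Figure D4:**
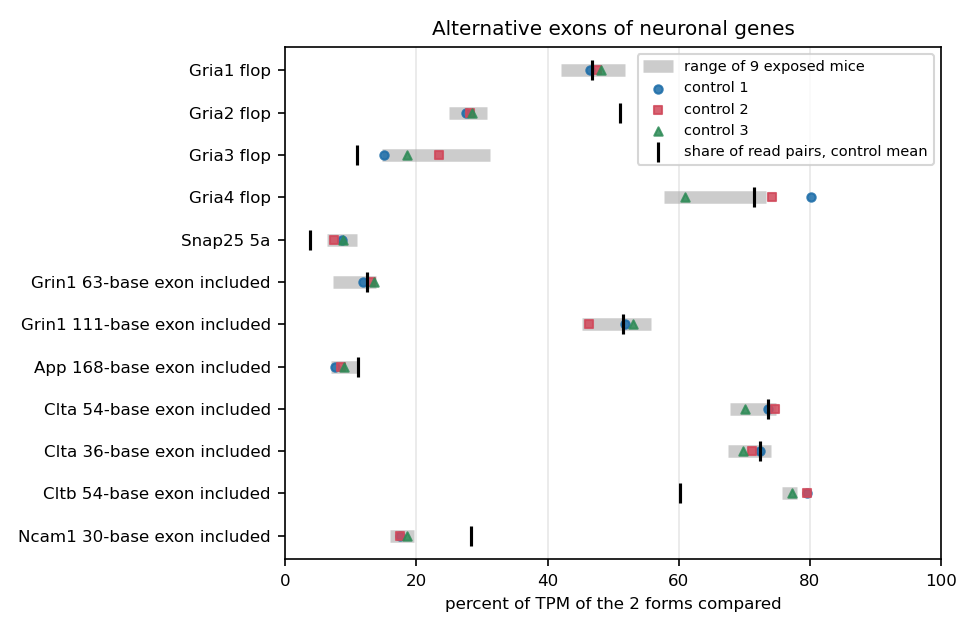
Percent of TPM in the first named form of each alternative exon, with 1 point per control mouse, a grey bar for the range of the 9 exposed mice and a black tick for the control mean by recovered read pairs. Control mice lie within 3 percentage points of each other except in Gria3, Gria4, Grin1 (C-terminal exon) and Clta (54-base exon), and the tick stands well apart in Gria2, Cltb and Ncam1.

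Differences between the 3 mice were small for most genes. Spread was measured as the SD of log2(TPM + 0.5) in 13293 genes with a mean of 1 TPM or more and 20 recovered read pairs or more, and its median was 0.11. It shrank with depth, from 0.21 in 2566 genes with 20 to 100 read pairs, where counting error alone gives 0.20, to 0.07 in 3069 genes above 1000 read pairs, where counting error gives 0.03. An SD of 0.5 or more was reached by 213 genes, or 1.60%, of which 174 had fewer than 100 read pairs. In the same measure 657 genes reached 0.5 in the ethanol group, 343 in the stress group and 567 in the ethanol + stress group, with medians of 0.19, 0.14 and 0.20, and no test of these differences was made. Steady genes of 100 TPM or more included Klhl9 (113 ± 0.0851 TPM), Usp5 (143 ± 0.194) and Celf4 (254 ± 0.453), chosen here with their values known.

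Pituitary hormone genes stood out among the 30 that varied most. Gh, growth hormone, had 0.182, 50.6 and 2.44 TPM in control 1, 2 and 3. Prl, prolactin, had 0, 11.4 and 0.219 TPM, and Pomc, the precursor of ACTH, 2.89, 21.03 and 2.80 TPM. Control 2 was highest in all 3. Cga, the common subunit of the glycoprotein hormones, looked up after these values were seen, had 0, 1.10 and 0 TPM, but Tshb, at 0.460, 0.444 and 0.324, and Lhb, at 1.77, 0.558 and 0.781, were not highest there. Gh and Prl were also high in ethanol 1, ethanol 3 and stress 3, with Gh at 73.4, 200.5 and 48.1 TPM, while Pomc stood at 3.49, 41.9 and 16.4 TPM there. Their part in other values of control 2 was not tested.

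Choroid plexus genes shared an order between the mice. Of 8 genes, 6 reached an SD of 0.5, all but Folr1 and Sostdc1, and none was among the 30. Ttr, the thyroid hormone carrier of cerebrospinal fluid, had 1251, 591 and 1782 TPM, and Enpp2 had 360, 242 and 503. Folr1, Kl, Kcnj13, Clic6, Sostdc1 and Aqp1 were also lowest in control 2, and all 8 genes were highest in control 3. The summed list ran from 157 to 7979 TPM in the 9 exposed mice. Mt1, a metallothionein that binds zinc and responds to glucocorticoids, had 455, 126 and 376 TPM and was, above 100 TPM, the most variable gene with sequence of its own.

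Many of the other varying genes share sequence with other genes. Among the 30, 18 had at least 50 percent of the 31-mers of their main transcript in transcripts of other genes, as had 50 of all 213, and the share over all genes was not computed. Gm14434, the most variable gene, had 24.3, 0.00203 and 3.56e-05 TPM in control 1, 2 and 3, with all of its 1428 31-mers shared. Gm14308, at 9.65, 41.6 and 46.1 TPM, shared all 1428 as well. Gm21541, Npcd, Gm20425, Gm14440, Pagr1a, Gm45140, Gvin1, Gm28635, Gm49333 and the pseudogenes Gm12481, Gm12895, Gm12896 and Gm9830 shared over 94%, and Gm20721, Gm14435 and 4930523C07Rik 51.1% to 90.9%, that of 4930523C07Rik with transcripts not analysed here alone. Gm12895 and Gm12896 hold the same values, 508, 222 and 133 TPM, and count as 1 measurement. In such genes the levels of single copies are uncertain.

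The varying genes with sequence of their own were mostly of low level. Cplane1, a cilium gene, had 8.72, 9.34 and 40.1 TPM, resting on a short main transcript with 63 31-mers, and Hells, a chromatin remodeller of dividing cells, had 0.986, 1.05 and 4.52. Both were highest in control 3. Bub1b, of the mitotic checkpoint, had 3.90, 0.653 and 1.32 TPM, Notch4, an endothelial receptor, 8.15, 1.75 and 4.11, and Gsdmd, the pore former of pyroptosis, 4.98, 3.55 and 1.15. Gm18194 and Gm960 had means of 2.20 and 2.41 TPM, and Nlrp5-ps, with 40.1% of its 31-mers shared, 4.82. The highest value was in control 1 for 78 of the 213 genes, in control 2 for 71 and in control 3 for 64, and without control 1, 2 or 3 there were 277, 265 and 284 such genes, 136, 118 and 126 of them among the 213, so that which genes were called variable depended on the mice included. Of the 213, 33 also reached an SD of 0.5 in each of the other 3 groups. The share over all ranked genes was not computed, and 174 of the 213 had fewer than 100 read pairs, so no recurrence is read from this count.

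**Figure D5:**
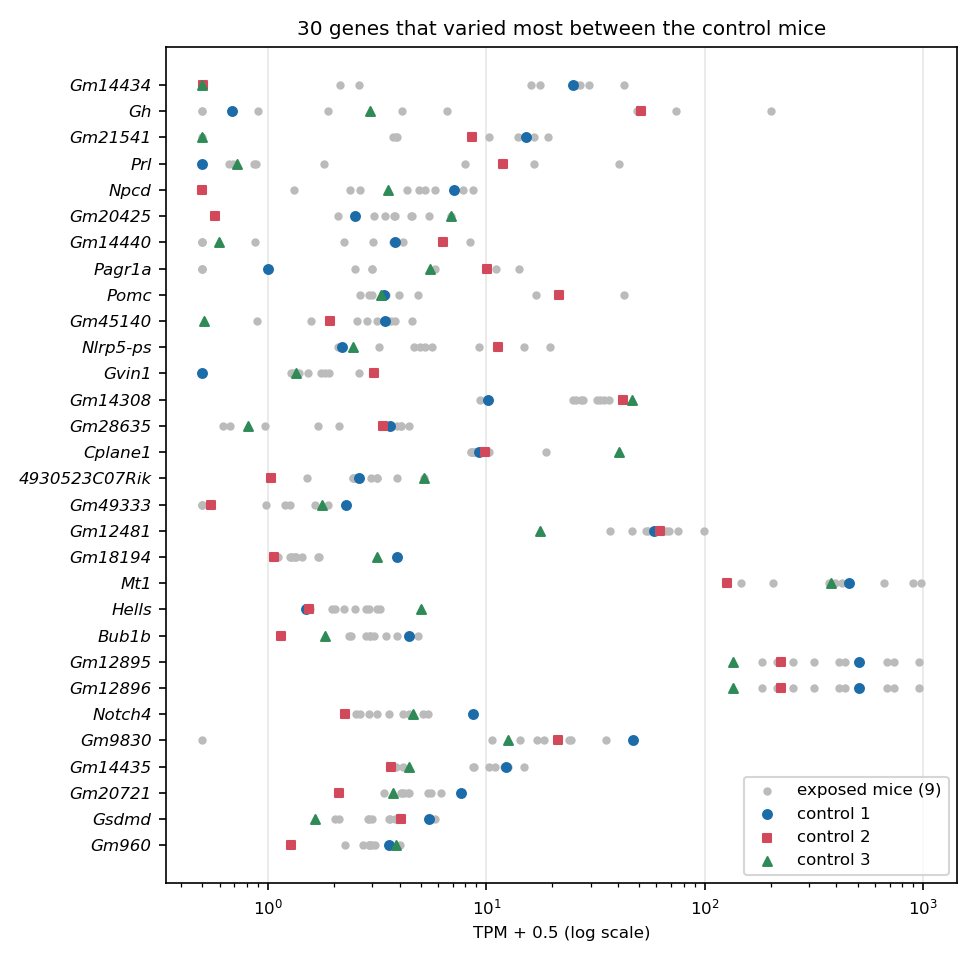
The 30 genes with the largest SD of log2(TPM + 0.5) between control mice, with TPM + 0.5 on a log axis, coloured points for the 3 control mice and grey points for the 9 exposed mice. Gh, Prl and Pomc are highest in control 2 among the controls, and reach as far or further in some exposed mice.

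Last, control levels were set against the 9 exposed mice to find where the untreated hippocampus differed, with limma and 1 term per group. Blood genes were lower in control mice. All 5 were called at an unadjusted p under 0.01, against 0.651% of the 18434 genes tested in either direction, 0.179% called with control higher and 0.472% with control lower. Hbb-bs, the adult beta globin, had 1009, 804 and 863 TPM in control mice and 1192 to 3561 in exposed mice, a log2 difference of -1.06 ± 0.31 (SE). The alpha globins Hba-a1 and Hba-a2 had 252 to 355 and 442 to 528 TPM against 425 to 1083 and 660 to 1751, with differences of -1.04 ± 0.24 and -0.999 ± 0.246. Hbb-bt differed by -1.003 ± 0.266, and Alas2, the heme enzyme of red cell precursors, by -0.88 ± 0.19, with 5.90 to 8.15 against 10.0 to 21.4 TPM. None of the 5 passed adjustment over all genes (limma, Benjamini-Hochberg adjusted p of 0.675 for Alas2 and 0.979 for the globins). The call of Hbb-bs was lost on leaving out control 1, control 2 or control 3, that of Hbb-bt on leaving out control 2 or control 3, and that of Hba-a2 on leaving out control 2. Read pairs that fit both globin copies of a pair are divided between them, so the 4 globin genes are not independent. How much blood remained in each dissected tissue is not given in the sources used here.

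In all, 120 genes were called, 33 with control higher and 87 with control lower. The split was 20 and 96 with a pseudocount of 0.1, 79 and 94 without a filter on low values, and 43 and 54 with each library rescaled to 1e+06. After adjustment 2 genes passed, both low in control mice. Tmem253 had 0.464 TPM on average in control and 3.44 in exposed mice (log2 difference -2.002 ± 0.248, limma adjusted p = 0.0480), and Gm49070 was listed at 0 in control mice and had 1.51 TPM in exposed mice (limma adjusted p = 0.0480). Both were named after their values were seen, and of 20 alternatives, 14 left 0 genes past the adjustment by limma, 5 left 1 and 1 left 2. Of the 30 highest protein-coding nuclear genes 0 were called by limma, with 0 at an unadjusted p under 0.05, and the background of 0.651% also gives fewer than 1 call in 30. Apart from blood, the lists held 1 call, Igf2 of the meninges, with 16.8 TPM in control and 24.02 in exposed mice (log2 difference -0.50 ± 0.14, limma adjusted p = 0.979). It was lost with each library rescaled to 1e+06 and on leaving out control 2 or control 3. The subfield, interneuron, glutamate receptor and GABA receptor lists had 0 calls by limma, with 1 interneuron gene at an unadjusted p under 0.05, and median log2 differences of -0.05 to 0.11, beside -0.02 over all genes tested. Immediate early genes, which neurons switch on when active, also had 0 calls, but had a median log2 difference of 0.40 and 3 of 12 genes at an unadjusted p under 0.05 by limma, beside 628 of all 18434. These were Fos, Btg2 and Dusp1, named after their values were seen. Fos had 23.1, 20.2 and 30.8 TPM in control mice and 5.37 to 32.0 in exposed mice, so the groups overlapped.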

How the data were processed

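The authors assigned paired-end reads of stranded, rRNA-depleted total RNA to Ensembl mouse transcripts (GRCm38) with kallisto. The deposited values, made with sleuth, are a signal: TPM per transcript scaled further between libraries, with control sums of 942219 to 986541. Versions are not given in the sources used here. kallisto divides a read pair among all transcripts that fit it.

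Of 115270 transcripts, 113580 were matched to GENCODE vM21 (112441 at the same version) and summed to 35580 genes. The value worth 1 read pair was found from low values of genes with 1 transcript, of which 82.3% to 83.3% came within 0.15 of a whole number in control libraries. These recovered read pairs were used for depth, for counting error and for the read-pair minimum of the spread measure. They also gave the rankings and shares that are stated by read pairs. TPM levels and the limma tests did not use them. Counting limits cover counting error only.

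Log2(TPM + 0.5) of genes that reached 0.1 TPM in 6 libraries was tested two-sided with limma 3.58.1 (R 4.3.3; lmFit, eBayes with trend), as control minus the mean of the 3 exposed groups, called at p under 0.01, with Benjamini-Hochberg adjusted p beside it. Since the replicates are single mice of unstated litter, p-values measure the spread between these samples. The model was also run on simulated data, and no result given here rests on that run. Flip and flop were told apart by the peptide each exon encodes, and 31-mers were matched in the GENCODE transcripts.

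Named genes are the 30 highest nuclear protein-coding genes, the 13 mitochondrial proteins, the 10 highest noncoding genes, the 4 highest and the zero members of each list, the 30 with the largest SD, and the main transcripts of neuronal genes. Some genes that this rule names are not reported here. Genes below the detection level, the pituitary genes and the genes passing adjustment were named after their values were seen. The members and lists were chosen with earlier results of these data known. Python 3.11.15, pandas 2.3.3, numpy 2.4.6 and matplotlib 3.10.9 were used.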

Additional observations from a re-analysis of the deposited data

How the results depend on the processing

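The number of detected genes ran from 10792 at 5 TPM to 16601 at 0.1 TPM. The 30 highest genes held 25.6% ± 0.582 of the TPM, but 22.6% without mitochondrially encoded genes, 10.0% as a share of recovered read pairs (30 highest by read pairs) and, in an alternative chosen after seeing the data, 13.7% without the 5 nuclear genes that share sequence with another RNA and the 4 chromosome 1 copies. Protein-coding genes held 93.0% of the TPM, 92.5% without mitochondrially encoded genes, 93.7% over transcripts of 300 bases or longer and 98.3% of recovered read pairs. Genes whose main transcript holds at least 50 percent numbered 8781 of 11189, 5283 of 6729 at 20 TPM or more and 9930 of 11189 by read pairs. Genes with a log2 SD of 0.5 or more numbered 213, 323 with a pseudocount of 0.1, 80 with a minimum mean of 5 TPM, 337 by the coefficient of variation and, chosen after seeing the data, 163 without those that share at least 50 percent of their 31-mers. The limma calls of control against exposed mice numbered 120, and 68 with a minimum of 1 TPM in 6 libraries, fewer genes tested being part of that. Leaving out each of the 12 mice gave 92 (without control 3) to 180 (without ethanol + stress 1), and without ethanol 3 there were 157. With a replicate block 115 genes were called and 0 passed adjustment by limma. Among same-numbered mice, 1 of 18 pairs had deviations that correlated over 0.1. This cannot show whether such mice share a litter, which the labels do not give. Only 3 mice and short transcripts near the fragment length limit the precision.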

Other observations

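Genes that respond to activity, stress hormones and time of day were present in the untreated hippocampus. Of 12 immediate early genes 11 were detected, and their sum was 265, 256 and 345 TPM in control 1, 2 and 3. Arc, an activity-induced protein of synapses, had 83.8, 91.1 and 134 TPM, Junb 58.9, 56.7 and 69.2, Nr4a1 23.7, 27.1 and 30.9, and Fos 23.1, 20.2 and 30.8, so control 3 was highest in all 4. The mineralocorticoid receptor Nr3c2 had 94.5 ± 10.5 TPM and the glucocorticoid receptor Nr3c1 51.3 ± 3.72. Among targets of these receptors Tsc22d3 had 98.7, 73.7 and 93.4 TPM and Sgk1 77.4, 50.5 and 69.7, each lowest in control 2, as was Mt1, while Hsd11b1, which regenerates active corticosteroid, had 54.003 ± 3.94 TPM. All 12 clock genes were detected, with Tef (182 ± 4.198), Nr1d2 (54.5 ± 2.79), Dbp (54.1 ± 4.42) and Cry2 (43.4 ± 1.20) highest, and their sum was 441, 440 and 463 TPM.

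Genes of neurogenesis were detected at 5 of 7 members, with a median of 1.91 TPM over the list. Sox11 (6.84 ± 0.443 TPM), Dcx, the marker of newborn neurons (4.07 ± 0.308), Top2a (2.01 ± 0.301) and Igfbpl1 (1.91 ± 0.713) were detected, and the dividing cell marker Mki67 and the progenitor factor Eomes averaged 0.592 and 0.490 TPM. Chaperones other than Hspa8 were led by Hsp90ab1 (1168 ± 40.6), Hsp90aa1 (997 ± 34.2) and Dnaja1 (281 ± 15.1), while the heat-inducible Hspa1a and Hspa1b stood at 9.93 and 15.0 TPM. Detected protein-coding genes on the X chromosome, 456 in number, had a median of 19.6 TPM, and those on the autosomes 20.1.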
